A study of Mus musculus with 6 samples.

Results

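The desmosome is the cell junction that anchors the keratin filaments of neighbouring keratinocytes to each other. The transcripts of its core proteins were followed in top lip tissue of Gtf2ird1 knockout mice and wild type mice. The genes were chosen by name: the desmogleins Dsg1a, Dsg1b, Dsg2 and Dsg3, the desmocollins Dsc1, Dsc2 and Dsc3, and the plaque genes Dsp, Pkp1 and Jup. These are 10 of the 26814 gene symbols with counts, and all 10 were present and passed the filter on low counts, which asked for 1 or more CPM in no fewer than 3 libraries, where CPM are counts rescaled to a common library total.

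RNA was taken from the top lip of adult females on the C57BL/6J background, 3 knockout mice of the Gtf2ird1 tm1Hrd line (KO) and 3 wild type mice (WT). Each mouse gave 1 RNA-Seq library. The paper gives an age range of some months for these adults and no age per mouse. The mutation is constitutive and not limited to 1 cell type. The tissue was not separated before extraction and holds epidermis, hair follicles, sebaceous glands, muscle and connective tissue. Libraries are called WT1 to WT3 and KO1 to KO3.

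Desmogleins and desmocollins are the desmosomal cadherins, which span the membrane and bind those of the next cell. Inside the cell, plakoglobin (Jup) and plakophilins bind their tails, and desmoplakin (Dsp) ties this plaque to keratin. In stratified epithelia Dsg3 and Dsc3 are known to be most abundant in the lower layers, Dsg1 and Dsc1 in the upper layers, and Dsg2 and Dsc2 in simple epithelia and in cells with little differentiation.

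Total counts on genes were 20164081 to 29491767 per library, and the gene with the most counts held 1.80 to 5.74% of a library. RNA integrity numbers were 9 to 9.5. A count of 3, the limit that a count of 0 allows for counting error, was 0.0986 to 0.154 CPM. Counts of the 10 desmosomal genes in single libraries were 874 to 136625, so counting error was small beside the spread between mice. The targeted gene, Gtf2ird1, was higher and not lower in the libraries labelled KO (144 to 166 CPM) than in WT (70.2 to 78.2 CPM), with a log2 fold change of 1.11 (SE 0.13, adjusted p = 0.0018 by edgeR's quasi-likelihood test). Counts per gene do not tell transcripts of the targeted allele from intact ones, so each direction given here is that of the libraries labelled KO. The genotypes of the mice were checked by the authors on tail biopsies. Of 15009 tested genes, 657 were called higher and 314 lower at an adjusted p under 0.05. The library KO3 stood nearest to WT: with it left out, 2496 genes were called higher and 2395 lower, and each member is therefore given with and without it. KO3 was singled out by its values in these same data. Leaving out the KO library nearest WT tends to widen differences and narrow the KO spread. Calls without KO3 are therefore a description of how far results rest on it, and not further support.

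The protein encoded by Gtf2ird1 is known to bind the sequence GGATTA, also at its own promoter, and the 250 bases before the RefSeq transcription start (GRCm38.p6) were read for the targeted gene and for the plaque genes Dsp and Jup. They are shown because one belongs to the targeted gene and carries sites of the protein it encodes, and the others belong to the plaque of the junction. Each is written 5′ to 3′ on the strand of its gene. Capitals mark GGATTA or its reverse complement in the Gtf2ird1 window, and the GC box GGGCGG or its reverse complement in the Dsp and Jup windows.
Gtf2ird1, chr5:134456717-134456966, minus strand: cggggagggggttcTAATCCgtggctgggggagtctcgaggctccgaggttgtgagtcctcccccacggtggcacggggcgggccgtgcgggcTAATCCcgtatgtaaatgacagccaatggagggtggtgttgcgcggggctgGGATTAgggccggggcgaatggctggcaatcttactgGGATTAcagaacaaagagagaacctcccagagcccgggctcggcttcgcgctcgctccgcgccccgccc
Dsp, chr13:38151044-38151293, plus strand: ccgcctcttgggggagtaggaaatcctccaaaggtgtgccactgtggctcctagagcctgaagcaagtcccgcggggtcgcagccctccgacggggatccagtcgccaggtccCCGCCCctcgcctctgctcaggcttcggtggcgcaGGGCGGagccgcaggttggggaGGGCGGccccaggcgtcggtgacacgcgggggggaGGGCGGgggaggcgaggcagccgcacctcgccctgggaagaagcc
Jup, chr11:100397791-100398040, minus strand: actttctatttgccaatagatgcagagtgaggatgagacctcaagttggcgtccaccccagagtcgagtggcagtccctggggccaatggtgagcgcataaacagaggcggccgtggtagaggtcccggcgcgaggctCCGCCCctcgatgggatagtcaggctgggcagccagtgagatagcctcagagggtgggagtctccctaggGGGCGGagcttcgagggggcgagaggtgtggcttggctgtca
GGATTA occurred 4 times in the Gtf2ird1 window and 0 times in the windows of Dsp and Jup, counting both strands, and it was present in 6.25% of 32851 promoter windows of this length. The GC box occurred 4 times before Dsp, 2 times before Jup and 2 times before Gtf2ird1, and in 32.7% of all windows. The AP-1 motif TGACTCA, present in 4.46% of the windows, occurred in none of the 3. The whole Dsp window lies in an exon of Gm10129, a gene annotated on the opposite strand. These matches describe the letters of the windows and do not show binding.

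Among the desmogleins, Dsg1b was called higher in the libraries labelled KO. Dsg1b encodes one of the mouse copies of desmoglein 1, the cadherin of the upper epidermal layers. It had 95.1, 119 and 124 CPM in WT1 to WT3 and 368, 259 and 185 CPM in KO1 to KO3. All KO libraries lay above all WT libraries, with KO1 the highest and KO3 the lowest of the 3. The mean was 2.40 times that of WT (log2 fold change 1.27, SE 0.25, adjusted p = 0.0248 by edgeR's quasi-likelihood test). In a bulk sample more cells of a type and more RNA per cell cannot be told apart, here and for every gene below. The call was lost without WT1 (adjusted p = 0.119 by the same edgeR test), WT2 (0.0696), WT3 (0.0805) or KO2 (0.0896), with log2 fold changes of 1.15 to 1.37. It was kept without KO1 (log2 fold change 1.05, adjusted p = 0.0420 by edgeR) and without KO3 (1.48, adjusted p = 0.000971).

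Dsg1a, the copy of desmoglein 1 with the most counts, had 418, 504 and 526 CPM in WT1 to WT3 and 781, 716 and 419 CPM in KO1 to KO3. KO1 and KO2 were above all WT libraries, and KO3 was level with the lowest of them. The log2 fold change was 0.40 (95% interval -0.14 to 0.95, adjusted p = 0.284 by edgeR's quasi-likelihood test), and without KO3 it was 0.64 (adjusted p = 0.0178). The copies of desmoglein 1 are similar in sequence, and a read can match more than 1 of them. Of the 100-base windows in its annotated transcripts, 32.8% of Dsg1b, 24.6% of Dsg1a and 13.9% of Dsg1c occurred identically in another of the 3 genes, while no other desmosomal gene examined had such a window. Only uniquely mapped reads were counted, so the level of each copy and the split between them are uncertain. When the counts of Dsg1a, Dsg1b and Dsg1c were summed, the log2 fold change was 0.61 (SE 0.24) and the sum was not called (adjusted p = 0.142 by edgeR), but it was called without KO3 (0.84, adjusted p = 0.00786).

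Dsg3, the desmoglein of the lower layers, had 116, 153 and 133 CPM in WT1 to WT3 and 243, 237 and 176 CPM in KO1 to KO3. The groups did not overlap, and the KO mean was 1.63 times the WT mean. The log2 fold change of 0.71 (SE 0.17) lay just outside the threshold (adjusted p = 0.0505 by edgeR's quasi-likelihood test), and without KO3 it was 0.85 (adjusted p = 0.00372). Dsg2, the desmoglein of simple epithelia and of cells at the base, had 33.0, 46.0 and 39.3 CPM in WT1 to WT3 and 57.8, 60.6 and 40.3 CPM in KO1 to KO3. KO1 and KO2 exceeded every WT library and KO3 lay among them. Its log2 fold change was 0.42 (95% interval -0.03 to 0.88, adjusted p = 0.189 by edgeR), and 0.59 without KO3 (adjusted p = 0.0217). Dsg2 shares exonic bases with Gm16090 on the opposite strand, and whether the reads were assigned by strand is not given in the sources used here.

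Of the desmocollins, Dsc3 was called higher. Dsc3, the desmocollin that accompanies Dsg3 in the lower layers, had 346, 537 and 474 CPM in WT1 to WT3 and 1008, 962 and 666 CPM in KO1 to KO3. Every KO library exceeded every WT library, and the mean was 1.94 times that of WT. The log2 fold change was 0.96 (SE 0.23, adjusted p = 0.0463 by edgeR's quasi-likelihood test). This call was lost when WT1 (adjusted p = 0.165 by edgeR), WT2 (0.0657), WT3 (0.148), KO1 (0.126) or KO2 (0.170) was left out, with log2 fold changes of 0.79 to 1.16. Without KO3 it was 1.13 with an adjusted p of 0.00375 (edgeR).

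Dsc1, the desmocollin of the upper layers, had 307, 387 and 341 CPM in WT1 to WT3 and 1012, 905 and 440 CPM in KO1 to KO3. The groups did not overlap, and KO1 and KO2 were far above KO3. The mean was 2.28 times that of WT, a log2 fold change of 1.19 (SE 0.29) that narrowly missed the threshold (adjusted p = 0.0531 by edgeR's quasi-likelihood test). Without KO3 it was 1.48, with an adjusted p of 0.000614 (edgeR). Dsc2, the most widespread desmocollin, had 72.7, 54.8 and 39.4 CPM in WT1 to WT3 and 68.2, 59.8 and 42.9 CPM in KO1 to KO3. Its ranges in the 2 genotypes were nearly the same, with a log2 fold change of 0.03 (95% interval -0.54 to 0.61, adjusted p = 0.939 by edgeR) and 0.21 without KO3 (adjusted p = 0.503).

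The plaque genes were the most abundant members, and none was called. Dsp, whose protein desmoplakin links the plaque to keratin filaments, had 2858, 2955 and 3447 CPM in WT1 to WT3 and 4793, 4492 and 3411 CPM in KO1 to KO3. KO1 and KO2 exceeded all WT libraries, while KO3 lay just below the highest of them. The log2 fold change was 0.46 (95% interval -0.04 to 0.95, adjusted p = 0.198 by edgeR's quasi-likelihood test), and 0.59 without KO3 (adjusted p = 0.0791). Like Dsg2, Dsp shares exonic bases with a gene on the opposite strand, Gm10129. Pkp1, the plakophilin of the upper layers, had 1879, 1509 and 1502 CPM in WT1 to WT3 and 1726, 1788 and 1632 CPM in KO1 to KO3. All its KO values lay within the WT range, with a log2 fold change of 0.07 (95% interval -0.32 to 0.47, adjusted p = 0.798 by edgeR) and 0.11 without KO3 (adjusted p = 0.688). Jup, encoding plakoglobin, which is shared with the adherens junction, had 1605, 1096 and 1378 CPM in WT1 to WT3 and 1367, 1520 and 1583 CPM in KO1 to KO3. Its groups overlapped as well, with a log2 fold change of 0.13 (95% interval -0.30 to 0.57, adjusted p = 0.665 by edgeR) and 0.091 without KO3 (adjusted p = 0.765).

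**Figure D1:**
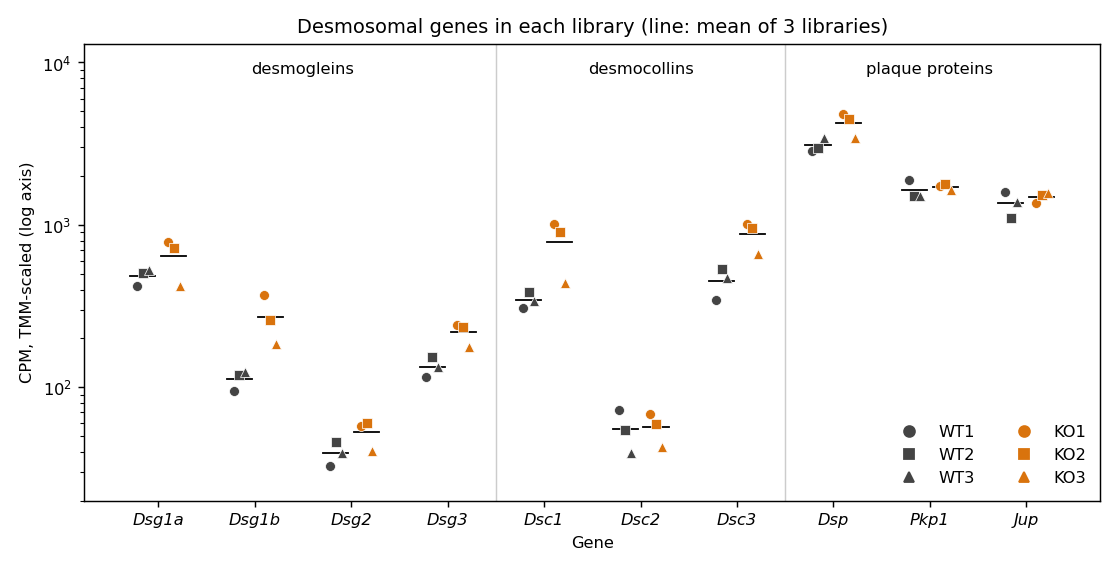
TMM-scaled CPM (vertical log axis) of the 10 desmosomal genes in each of the 6 libraries, grey for WT and orange for KO, with a line at the mean of 3 libraries. Dsg1b, Dsg3, Dsc1 and Dsc3 have all KO points above all WT points, and KO3 (orange triangle) is the lowest KO point of every gene but Jup.

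Over the 10 genes, 2 were called higher (Dsg1b and Dsc3) and 0 lower by edgeR's quasi-likelihood test, against 4.38% of all tested genes called higher and 2.09% called lower. Before adjustment 4 of the 10 (Dsg1b, Dsg3, Dsc1 and Dsc3) were higher with a p under 0.05, against 13.5% of all genes. The same 4 were those whose groups did not overlap, a pattern held by 13.5% of all genes with KO higher and by 18.1% with KO lower. All 10 fitted log2 fold changes were above 0, against 48.0% of all genes, but that of Dsc2 fell to -0.03 with upper-quartile scaling. Their median was 0.44, beside -0.02 over all tested genes. Dsg3 and Dsc1 joined the called genes with edgeR's exact test, for which 7.76% of all genes were called higher and 7.15% lower, and with DESeq2's Wald test, for which these were 9.17% and 5.52%. Without KO3, 6 of the 10 (Dsg1a, Dsg1b, Dsg2, Dsg3, Dsc1 and Dsc3) were called higher and the median was 0.62, with 16.9% of all genes called higher and 16.2% lower.

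**Figure D2:**
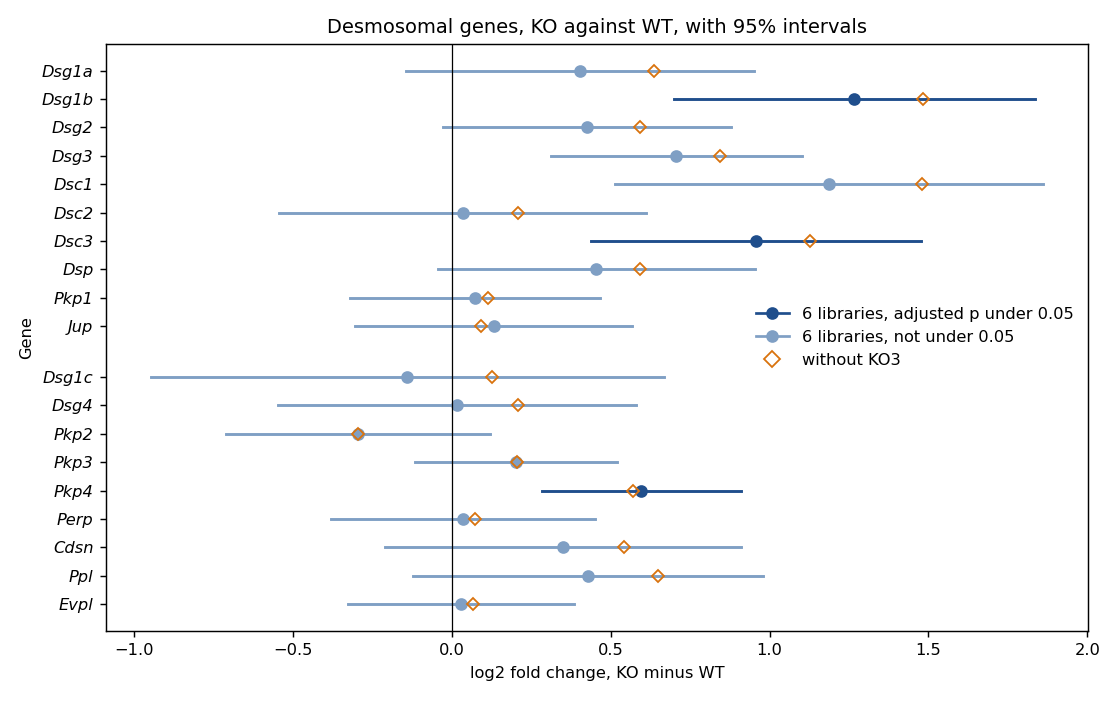
Log2 fold change of KO over WT (horizontal axis) from edgeR's quasi-likelihood fit for the 10 desmosomal genes and, below them, 9 further genes of the desmosome and cornified envelope; bars are 95% intervals and dark points have an adjusted p under 0.05. Diamonds give the estimate without KO3, which lies to the right of the 6-library estimate for each of the 10 genes except Jup.

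The 3 KO libraries were not alike. Relative to the WT mean, the median of the 10 genes was 0.67 on the log2 scale in KO1, 0.60 in KO2 and 0.19 in KO3, while the medians over all tested genes were -0.01, -0.03 and -0.05. KO3 was the KO library nearest the WT mean for 8 of the 10, against 57.1% of all tested genes and 65.8% of the called ones. In KO1, Dsg1b reached 3.28 times the WT mean, Dsc1 2.94 times and Dsc3 2.26 times. In KO3 these genes were at 1.65, 1.28 and 1.5 times, so that Dsc1 varied most between the KO mice. Dsg1a (0.87 times) and Dsc2 (0.80 times) were below the WT mean in KO3.

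Levels of different genes can be set side by side only per length of their exons. In CPM per kb of exon, the WT means ran from Pkp1 (324 ± 42.9, SD, n = 3) and Dsp (320 ± 32.7), which did not differ beyond their spread, to Jup (211 ± 39.7). The cadherins followed with Dsg1a (84.9 ± 9.97), Dsc3 (83.7 ± 18) and Dsc1 (68.4 ± 8.0), whose ranges across libraries overlapped. Within each WT library Dsg1a and Dsc3 stood above Dsc1, while the order of Dsg1a and Dsc3 changed between libraries. Dsg1b (28.4 ± 3.87) and Dsg3 (19.2 ± 2.62) came next and were separate in all WT libraries. Dsc2 stood at 10.5 ± 3.15 and Dsg2 at 4.77 ± 0.79. In KO, Dsp was highest at 438 ± 75.2. Dsc3 (163 ± 34.4) and Dsc1 (156 ± 60.3) both stood above Dsg1a (112 ± 33.9) within each KO library, though the ranges across libraries overlapped.

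The makeup of the cadherin pool was compared as shares within each family. Of the CPM per kb of all 6 desmogleins, Dsg1b made up 19 ± 0.23% in WT and 29.4 ± 3.04% in KO (SD, n = 3), and Dsg1a made up 56.9 ± 1.04% and 48.5 ± 2.35%, without overlap for either gene. The shares of Dsg4 (7.74 ± 1.06% and 5.19 ± 0.71%) and Dsg1c (0.26 ± 0.02% and 0.15 ± 0.03%) were also lower in every KO library. The share of Dsg3, 12.9 ± 1.04% in WT and 13.9 ± 1.83% in KO, overlapped. Among the desmocollins, Dsc2 made up 9.93%, 5.57% and 4.59% in WT1 to WT3 and 3.23%, 3.07% and 3.72% in KO1 to KO3, without overlap. Its mean CPM was 55.6 in WT and 57.0 in KO. Dsc1 (42.2 ± 1.48% in WT, 46.2 ± 5.54% in KO) and Dsc3 (51.1 ± 4.28% and 50.4 ± 5.23%) held similar shares. Summed over the family, desmocollins had 725, 978 and 854 CPM in WT1 to WT3 and 2087, 1927 and 1148 CPM in KO1 to KO3. The desmoglein sums were 694, 866 and 872 CPM in WT and 1495, 1324 and 852 CPM in KO, so that KO3 fell within WT.

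**Figure D3:**
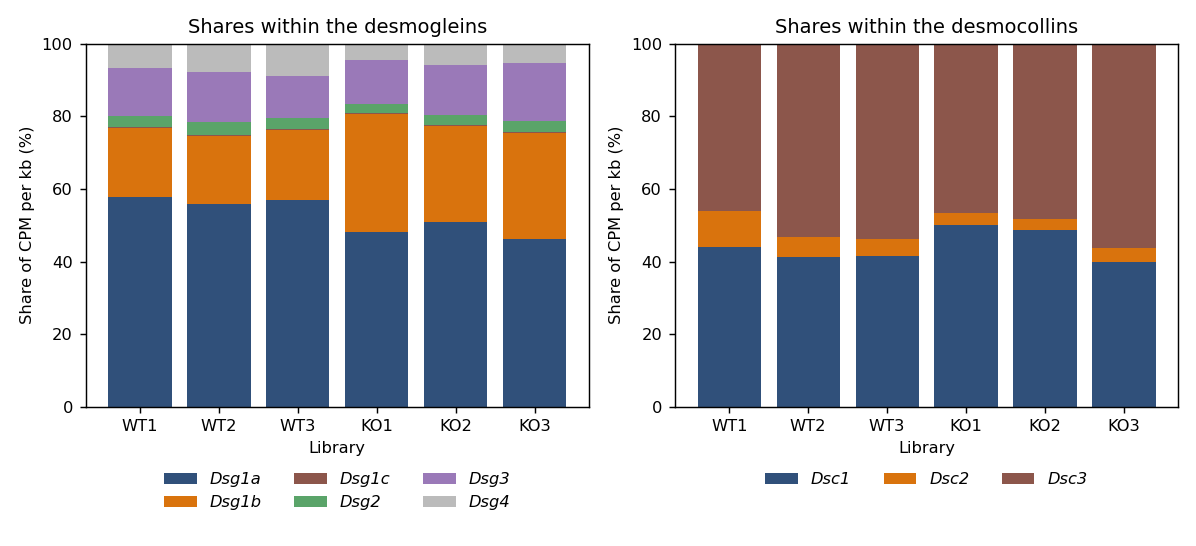
Share of each gene in the summed CPM per kb of exon (vertical axis, %) within the 6 desmogleins (left) and the 3 desmocollins (right), 1 bar per library. The Dsg1b segment takes 18.9 to 19.3% of the WT bars and 26.5 to 32.5% of the KO bars, and the Dsc2 segment is thinner in each KO bar than in each WT bar.

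Ratios of counts within a library are free of scaling between libraries, and 9 pairs were compared with a two-sided exact permutation test, whose smallest possible p with 3 against 3 is 0.1. The log2 ratio of Dsg1a to Dsg1b was 2.14, 2.09 and 2.09 in WT1 to WT3 and 1.09, 1.47 and 1.18 in KO1 to KO3. It was lower in every KO library, by 0.86 on average (SE 0.12, exact permutation p = 0.1, 0.225 adjusted over the pairs), and this pair shares identical windows as given above. The ratio of Dsg1b to Dsg2 was higher in every KO library by 0.80 (SE 0.19) and that of Dsg1b to Dsg3 by 0.52 (SE 0.18), with the same exact p. Dsc2 to Dsc3 had a log2 ratio of -2.25, -3.29 and -3.59 in WT and -3.89, -4.01 and -3.96 in KO, lower in each KO library (difference -0.91, SE 0.41, exact permutation p = 0.1, 0.225 adjusted). The WT spread of this ratio came largely from WT1, the library with the most Dsc2 and the least Dsc3, and without WT1 the difference was -0.51.

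The other pairs overlapped between the genotypes. Dsc1 to Dsc3 differed by 0.15 (SE 0.21), with 0.030 without KO1 and 0.33 without KO3 as the ends of its range when 1 library was left out. Dsg1b to Dsc1 differed by 0.11 (SE 0.18), and by -0.013 without KO3 and 0.26 without KO2. Dsp to Dsc1 differed by -0.66 (SE 0.26, exact permutation p = 0.2, 0.36 adjusted), with KO1 and KO2 at 2.24 and 2.31 and KO3 at 2.96, inside the WT range of 2.93 to 3.34. Within the plaque, Dsp to Jup differed by 0.30 (SE 0.28), from 0.12 without WT1 and 0.14 without KO1 to 0.49 without KO3, and Pkp1 to Jup by -0.07 (SE 0.13). A p of this size in 3 against 3 does not show that these ratios were equal.

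**Figure D4:**
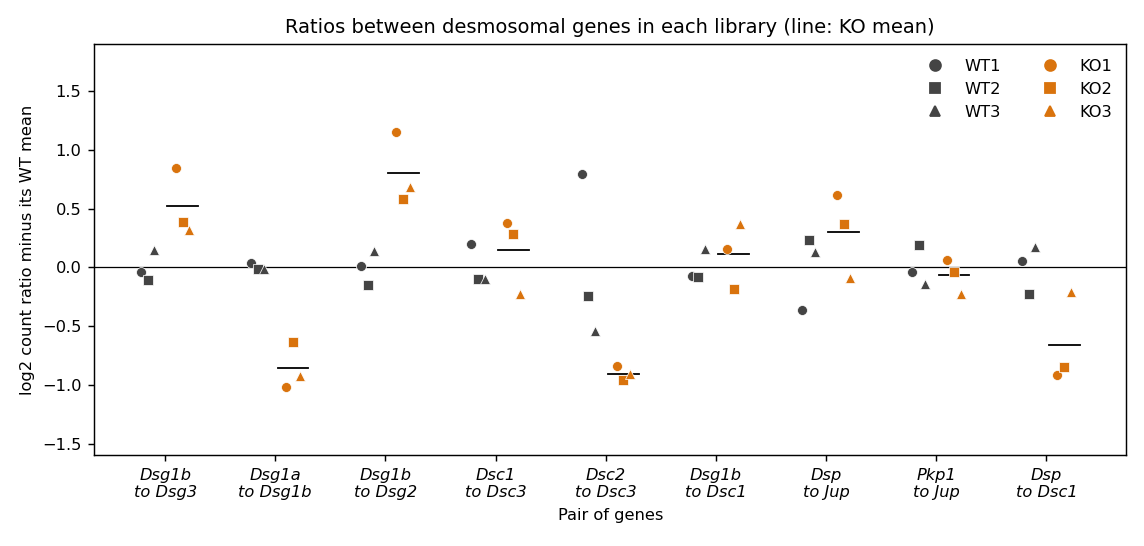
Log2 ratio of the counts of each of 9 pairs of desmosomal genes in each library, minus the mean of that ratio in WT (vertical axis); grey is WT, orange is KO, and lines are KO means. Dsg1a to Dsg1b and Dsc2 to Dsc3 lie lower in all KO libraries, Dsg1b to Dsg3 and Dsg1b to Dsg2 lie higher in all of them, and the other pairs overlap.

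Since the lip is a mixed tissue, each gene was also set against keratinocyte genes of the same library, as its log2 CPM minus the mean log2 CPM of Krt5 and Krt14, the keratins of the basal layer, and Cdh1, the classical cadherin of epithelia. On this scale Dsg1b was -4.39, -3.97 and -3.99 in WT1 to WT3 and -2.61, -2.92 and -3.65 in KO1 to KO3. It was higher in every KO library, with a difference of 1.06 (exact permutation p = 0.1, 0.5 adjusted over the 10 genes). The groups of the other genes overlapped, with differences of 0.95 for Dsc1, 0.80 for Dsc3, 0.54 for Dsg3, 0.29 for Dsp, 0.25 for Dsg2, 0.20 for Dsg1a, -0.01 for Jup, -0.08 for Pkp1 and -0.10 for Dsc2. The outcome depended on the reference. Cdh1 was itself higher in every KO library (log2 fold change 0.37, adjusted p = 0.108 by edgeR's quasi-likelihood test). Against Krt5 and Krt14 alone, the differences were 1.16 for Dsg1b and 0.90 for Dsc3, each with an exact permutation p of 0.1. Krt1 and Krt10 were also higher in every KO library (log2 fold changes 1.18 and 0.64), which lowers each difference against them. With these 2 as reference the exact permutation p of Dsg1b was 0.3. Against Krt1 and Krt10, the keratins of the suprabasal layers, the differences were 0.32 for Dsg1b, 0.20 for Dsc1 and 0.06 for Dsc3, but -0.54 for Dsg1a, -0.49 for Dsg2, -0.20 for Dsg3, -0.46 for Dsp, -0.85 for Dsc2, -0.82 for Pkp1 and -0.75 for Jup. Single libraries also moved these values. Against Krt5, Krt14 and Cdh1, Dsg1a ranged from 0.023 without KO2 to 0.53 without KO3, Dsg2 from 0.073 to 0.49 and Dsp from 0.17 to 0.49 without the same libraries. Without WT1 the difference was 0.083 for Dsg1a and 0.11 for Dsg2, and without KO1 it was 0.055 for Dsg1a.

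Of 9 further genes of desmosomes and of the cornified envelope, Pkp4 was called higher. Pkp4, a relative of the plakophilins that is found in several kinds of junction, had 45.1, 54.5 and 43.5 CPM in WT1 to WT3 and 68.9, 72.4 and 75.2 CPM in KO1 to KO3. The groups did not overlap and KO3 was its highest library (log2 fold change 0.60, SE 0.14, adjusted p = 0.0430 by edgeR's quasi-likelihood test). The others were not called. Their log2 fold changes were 0.43 for Ppl and 0.03 for Evpl, which encode the envelope plakins periplakin and envoplakin, and 0.35 for Cdsn, encoding corneodesmosin of the outermost desmosomes. They were 0.20 for Pkp3 and -0.29 for Pkp2, the remaining plakophilins, 0.03 for Perp, a membrane protein of desmosomes, 0.02 for Dsg4, the desmoglein of hair, and -0.14 for Dsg1c. Their median, Pkp4 included, was 0.03. Without KO3, Ppl was called as well (0.65, adjusted p = 0.0241 by edgeR).

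Enzymes that cut desmosomal proteins, and their inhibitor, were followed as well. Of these 7 genes, Klk5 and Klk7, the kallikreins that degrade corneodesmosomes when the skin sheds, were called higher and none was called lower. At an unadjusted p under 0.05 5 of the 7 were higher, against 13.5% of all genes. The exact test called 3 higher, DESeq2 4 and limma-voom 2. Klk5 had 110, 116 and 126 CPM in WT1 to WT3 and 284, 254 and 184 CPM in KO1 to KO3, without overlap (log2 fold change 1.03, SE 0.18, adjusted p = 0.0143 by edgeR's quasi-likelihood test). Klk7 had 472, 580 and 423 CPM in WT and 1469, 1177 and 789 CPM in KO, also without overlap (1.22, SE 0.25, adjusted p = 0.0285 by edgeR). Spink5, which encodes their inhibitor, had 210, 283 and 354 CPM in WT and 959, 845 and 270 CPM in KO. KO3 lay inside the WT range, and Spink5 was not called (1.29, SE 0.43, adjusted p = 0.0998 by edgeR) but was called without KO3 (1.68, adjusted p = 0.00114). As for Dsg1b and Dsc1, KO1 was the highest and KO3 the lowest KO library for these 3 genes.

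Of the genes of other junctions, Dst alone was called in the 6 libraries. Of 11 adherens junction genes 0 were called by edgeR (3 higher and 1 lower at an unadjusted p under 0.05, 0 with the exact test or limma-voom, 3 higher with DESeq2), with a median log2 fold change of 0.22. The lowest p were those of Ctnnd1 (0.43, adjusted p = 0.0774 by edgeR's quasi-likelihood test) and Ctnna1 (0.51, adjusted p = 0.0974), which encode p120 catenin and alpha catenin. Of 9 hemidesmosome and laminin genes, Dst, a plakin of hemidesmosomes, was called higher (1.37, SE 0.29, adjusted p = 0.0343 by edgeR), and the median was 0.02. Itga6, an integrin subunit of the hemidesmosome, followed at 0.34 (adjusted p = 0.127 by edgeR). Only 5 of the 9 had a log2 fold change above 0, and the lowest was -0.39. Of 7 tested tight junction genes 0 were called by edgeR, DESeq2 or limma-voom (1 lower at an unadjusted p under 0.05; median -0.05), with Cldn4 at -0.46 (adjusted p = 0.0765 by edgeR) and Tjp1 at 0.28 (adjusted p = 0.223).

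The tissue makeup was read from cell type markers in the same libraries. Suprabasal keratinocyte markers summed to 19690 to 24332 CPM in WT and 30694 to 46401 CPM in KO, with KO3 the lowest KO library. Most of these sums was Krt1 (mean 8019 CPM in WT, 18219 in KO) and Krt10 (8715 and 13574). Of these 7 genes, 1 was called higher, Ivl (1.55, adjusted p = 0.0292 by edgeR's quasi-likelihood test), and Krt1 stood at 1.18 (adjusted p = 0.0584). At an unadjusted p under 0.05 4 of the 7 were higher, against 13.5% of all genes. The exact test and DESeq2 each called 4 higher, against 7.76% and 9.17% of all genes, and limma-voom called 2. Flg stood at 0.82, Krt10 at 0.64, Krtdap at 0.35 and Sbsn at 0.24, while Lor was below 0 (-0.32). The groups overlapped for Flg, Sbsn and Lor. Sums of the 4 basal markers overlapped (9514 to 10265 CPM in WT, 8954 to 10798 in KO). Of them 0 were called by edgeR, DESeq2 or limma-voom and 1 was lower at an unadjusted p under 0.05 (median 0.03), with Krt15 at -0.36 (adjusted p = 0.166 by edgeR) and Trp63 at 0.10 (adjusted p = 0.619). Wound keratins summed to 3841 to 5485 CPM in WT and 5785 to 8827 in KO, and of 4 genes Krt16 was called higher (1.95, adjusted p = 0.0365 by edgeR) with Krt6a at 0.86 (adjusted p = 0.0641). Of these 4 wound keratins 2 were higher at an unadjusted p under 0.05, 3 with the exact test, and 2 with DESeq2 or limma-voom.

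Every muscle, hair follicle, sebaceous, fibroblast and endothelial marker had a fitted log2 fold change below 0, while 48.0% of all tested genes were above 0. Some were small: the value nearest 0 was -0.24 among fibroblast and -0.09 among endothelial markers. The groups of every fibroblast and endothelial marker overlapped. Skeletal muscle markers summed to 9654 to 12582 CPM in WT and 4671 to 7300 in KO. Of these 5 genes 1, Tnnt3, was called lower (-1.01, adjusted p = 0.0397 by edgeR's quasi-likelihood test), and Ttn stood at -1.17 (adjusted p = 0.0685). With DESeq2 or edgeR's exact test 4 of the 5 were called lower. Hair follicle markers summed to 7875 to 10010 CPM in WT and 5291 to 6801 in KO, with 0 of 6 called by edgeR, 5 lower at an unadjusted p under 0.05 and 1 lower with DESeq2. Krt27 stood at -0.53 (adjusted p = 0.0868 by edgeR) and Krt35 at -0.62 (adjusted p = 0.0981). By edgeR's quasi-likelihood test 0 of 3 sebaceous genes (median -0.56; 2 lower at an unadjusted p under 0.05), 0 of 5 fibroblast genes (-0.75; 0 unadjusted) and 0 of 3 endothelial genes (-0.30; 1 lower unadjusted) were called. Of 3 leukocyte genes (0.21) 0 were called, with 1 higher and 1 lower at an unadjusted p under 0.05 and 1 higher with DESeq2. Named by lowest p, these were Mc5r (-0.56) and Awat2 (-0.61) for sebaceous, Col1a2 (-0.80) and Col3a1 (-0.75) for fibroblast, Cdh5 (-0.63) and Kdr (-0.30) for endothelial, and Ptprc (0.67) and Lyz2 (-0.40) for leukocyte genes. Fibroblast sums overlapped between WT (6268 to 8235 CPM) and KO (2668 to 6586), with KO3 the highest KO library. No gene of these marker lists had 0 counts in any library. Over all lists but the 10 members, 6 genes were called higher and 1 lower. These became 16 and 18 without KO3, and 1 or 0 higher and 0 lower when any other library was left out (WT1, WT2 and KO1 each left 1 higher, WT3 and KO2 each 0). Of all tested genes 4.38% were called higher and 2.09% lower in the 6 libraries, and 16.9% and 16.2% without KO3. Whether the lists differed from these shares was not tested. The part of these cell types in the values of the desmosomal genes was not tested.

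**Figure D5:**
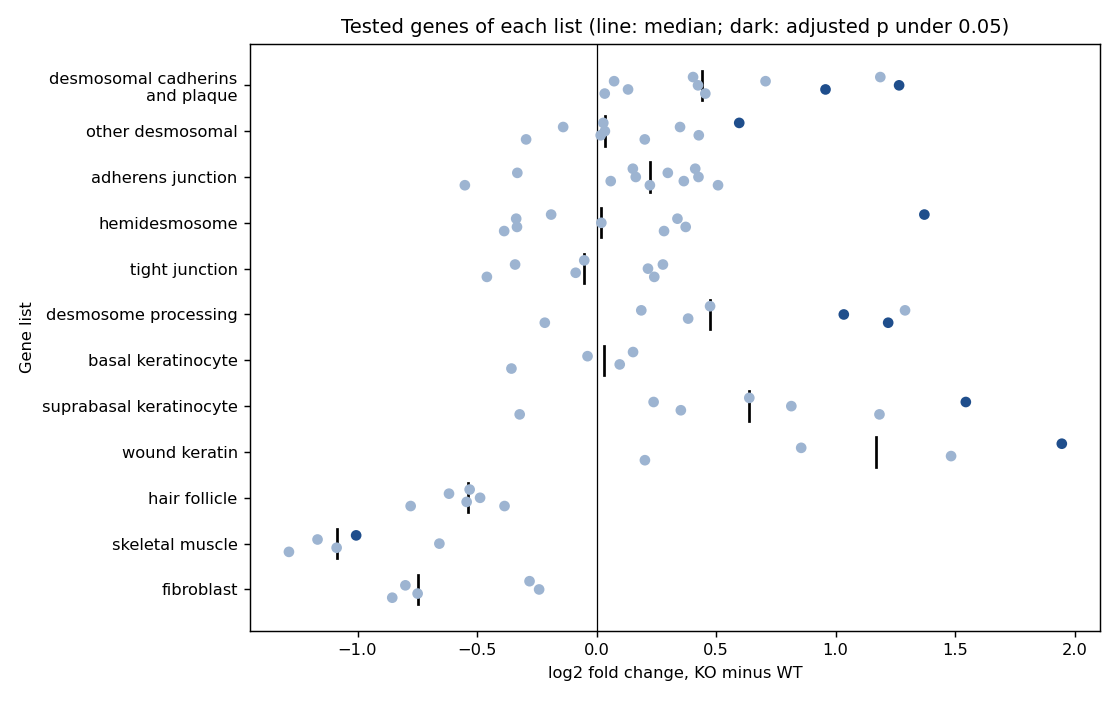
Log2 fold change of KO over WT (horizontal axis) for each tested gene of 12 of the lists; black lines are medians and dark points have an adjusted p under 0.05 by edgeR's quasi-likelihood test. The desmosomal genes have a median of 0.44, beside 0.64 for suprabasal keratinocyte, 0.03 for basal keratinocyte, -0.54 for hair follicle and -1.09 for skeletal muscle markers.

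By position, the 7 cadherin members lie in 1 cluster on chromosome 18 (19960930 to 20604521, 643.6 kb, GRCm38), in the order Dsc3, Dsc2, Dsc1, Dsg1c, Dsg1a, Dsg1b, Dsg4, Dsg3 and Dsg2. The genes called in the 6 libraries, Dsc3 at one end and Dsg1b in the middle, did not sit side by side. Dsc2, between Dsc3 and Dsc1, had a log2 fold change of 0.03. This rests on the threshold, which Dsg3 and Dsc1 narrowly missed. Without KO3 the called genes included the neighbours Dsg1a and Dsg1b, and the neighbours Dsg3 and Dsg2. The nearest tested genes outside the cluster were not called by edgeR's quasi-likelihood test. Before Dsc3 they were far off: Cdh2 at 3152 kb had a log2 fold change of -0.63 (adjusted p = 0.242), Aqp4 at 4550 kb 0.02 (0.967) and Kctd1 at 4809 kb -0.15 (0.570). Cdh2 (1.23 to 3.64 CPM) and Aqp4 (2.20 to 3.81 CPM) also had low levels. After Dsg2, B4galt6 at 80.1 kb had -0.38 (adjusted p = 0.277 by edgeR), Trappc8 at 213 kb 0.62 (0.125) and Rnf125 at 340 kb -0.58 (0.135). The plaque genes lie elsewhere, Dsp on chromosome 13 (38151294 to 38198577), Pkp1 on chromosome 1 (135871395 to 135919207) and Jup on chromosome 11 (100368958 to 100397763).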

How the data were processed

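RNA-Seq libraries of lip tissue from 3 WT and 3 KO mice were analysed. Paired-end reads were aligned by the authors to GRCm38 using TopHat2 (2.0.8) and Bowtie2 (2.1.0), and the deposited values are raw counts per gene of uniquely mapped reads from HTSeq-count. The strand setting is not given in the sources used here. Groups were taken from the labels, and 0 columns were left unused.

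The filter of the authors, 1 CPM or more in 3 libraries or more, left 15009 genes. Counts were scaled by TMM and tested with edgeR 4.0.16 (glmQLFit with legacy=FALSE, glmQLFTest; R 4.3.3), with Benjamini-Hochberg adjustment over all tested genes and a threshold of 0.05. CPM are TMM-scaled. Ratios used a pseudocount of 0.5 counts and exact permutation tests (Python 3.11.15, scipy 1.17.1). Exon lengths, positions and shared windows came from a GENCODE annotation of GRCm38, which held 24858 of the 26814 symbols, and promoter sequences from RefSeq. Promoters of the 7 cadherin members, on chromosome 18, were not read. Of the plaque genes, the RefSeq promoters used here included those of Dsp and Jup. The scripts were tested on simulated counts.

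Alternatives were edgeR's exact test, DESeq2 1.42.0, limma-voom (limma 3.58.1), the older and the robust quasi-likelihood fits, 3 other scalings, 2 other filters, a replicate block, a threshold of 0.1 and each library left out. A sum of the Dsg1 copies was added after seeing the data. Genes named were all 10 members, Gtf2ird1, the 9 other desmosomal genes, called genes of each list (up to 4, otherwise the 2 with the lowest p), the 3 nearest tested genes on each side of the cadherin cluster and the 5 genes most like the members. Spink5, Ppl, the keratinocyte reference genes and the remaining suprabasal markers were named beyond this rule, after their values were seen. A list of epidermal transcription factors is not reported here. The members and lists were chosen with earlier results of these data known.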

Additional observations from a re-analysis of the deposited data

How the results depend on the processing

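The number of desmosomal genes called higher, 2 with edgeR's quasi-likelihood test, was 4 with edgeR's exact test, DESeq2, no filter or an adjusted p under 0.1, 1 with library size alone, with 10 counts in every library or with the Dsg1 copies summed, and 0 to 6 with single libraries left out (6 without KO3, 1 without KO1, 0 otherwise). With the replicate number as a block it was 0 (adjusted p = 0.0526 for Dsg1b and 0.0618 for Dsc3 by edgeR). The labels give same-numbered samples nothing in common but the number. Their deviations from the genotype means correlated at -0.19, 0.31 and 0.33, and not every sample correlated best with its own number. Deviations within a genotype sum to 0 and are not independent, so these correlations cannot show or exclude a shared batch. No desmosomal gene was called lower under any alternative run.

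Called genes of the other lists numbered 12 higher and 5 lower with the exact test, 16 and 5 with DESeq2, and 11 and 9 at an adjusted p under 0.1. Lower ones numbered 2 without a filter. With libraries left out they ranged from 0 to 16 higher and 0 to 18 lower, the most without KO3. Over all genes, calls were 1165 higher and 1073 lower with the exact test, 1504 and 905 with DESeq2, and 1248 and 1281 at an adjusted p under 0.1. Lower calls were 207 with DESeq2's size factors and 204 with no filter or with 10 counts in every library. With libraries left out, 208 to 2496 genes were higher and 18 to 2395 lower, the fewest without KO2 and the most without KO3.

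With Krt1 and Krt10 as reference, differences turned negative for Dsg1a (-0.54), Dsg2 (-0.49), Dsg3 (-0.20) and Dsp (-0.46), and Dsc2 (-0.85), Pkp1 (-0.82) and Jup (-0.75) moved further below 0, while Krt5 and Krt14 alone gave 0.027 for Pkp1 and 0.093 for Jup. The log2 fold change of Dsc2 was -0.027 with upper-quartile scaling and -0.16 to 0.27 with libraries left out. Leaving out libraries also turned the log2 ratio of Dsg1b to Dsc1 (-0.013 to 0.26) and of Pkp1 to Jup (-0.14 to 0.029), and the values against the reference of Dsc2 (-0.34 to 0.14), Pkp1 (-0.18 to 0.0095) and Jup (-0.13 to 0.098). The causes were not tested. Other scalings moved the median of all genes by less than 0.1, at most to -0.08.

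With 3 mice per genotype, exact tests could not go below 0.1. Left-out fits had fewer libraries, and calls near the threshold (Dsg3, Dsc1, Dsc3) moved across it. Nothing says that mice were littermates or that libraries were prepared together. The limit of 3 counts covers counting error only, whereas the intervals of log2 fold changes include the spread between mice. Reads shared by the Dsg1 copies limit the values of Dsg1a and Dsg1b.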

Other observations

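The genes whose log2 CPM followed the mean of the 10 desmosomal genes most closely over the 6 libraries were Fbxo30 (Pearson r 0.998), Slmap (0.997), Mgea5 (0.997), Sub1 (0.996) and Naa15 (0.996). They are the highest of all tested genes by choice, and the 6 libraries hold both genotypes. Their own log2 fold changes were 1.33, 0.71, 0.48, 0.54 and 0.93, with adjusted p of 0.0437, 0.0769, 0.0893, 0.0902 and 0.0638 by edgeR.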
